A study of Mus musculus with 12 samples.

Results

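The accessible chromatin around Clec4f and 9 other C-type lectin genes of mouse myeloid cells was examined: Clec1b, Clec4a1, Clec4a2, Clec4a3, Clec4d, Clec4e, Clec4n, Clec7a and Clec12a. Members were the ATAC-seq peaks (ATAC-seq maps open DNA by where a transposase can insert adapters) whose centre lay in 1 of these genes, or for which 1 of them was the nearest protein-coding gene within 100 kb in mm10. They had 192 peaks in 6 deposited lists, which merged into 64 regions of 100354 in all; peaks overlapping by 1 bp or more were joined.

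The 12 libraries, 2 per group, came from C57BL/6J mice, and both libraries of a group share a single deposited peak list. From mice on a diet that models nonalcoholic steatohepatitis (NASH) came the F4/80-high cells without Tim4 (KN-RM) and with Tim4 (KC-N), both labelled Kupffer cells, CD11b-high recruited liver macrophages with low Ly6C (Ly6CLo-RM) or high Ly6C (Ly6CHi-RM), and Ly6C-high monocytes of the blood (Blood-Ly6CHi-NASH). KC-H, the remaining group, held the same Tim4-positive Kupffer cells from mice on a control diet. Livers were perfused and digested with flavopiridol present before sorting. The mice's ages, any pooling of animals and the handling of the blood are not described in these sources. With 1 list per group there was no value per library, so no difference between lists has a test, a replicate error or a p-value, and all statements describe what the lists hold.

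C-type lectin receptors are surface proteins of myeloid cells that bind sugars, lipids or proteins of microbes and of damaged cells. Activating members signal through the kinase Syk, either by a motif in their own tail or by pairing with the Fc receptor gamma chain, and inhibitory members recruit phosphatases. Clec4f encodes a galactose-binding receptor that in the mouse is a marker of Kupffer cells, which are the macrophages resident in liver. The others lie in 2 clusters further along the same chromosome, 6: Clec4a1, Clec4a3, Clec4a2, Clec4n, Clec4d and Clec4e in that order, and Clec12a, Clec1b and Clec7a.

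Start sites and promoters were available from RefSeq (GRCm38.p6) for 9 of the 10 genes; Clec4n was not among them. A promoter window covers 250 bases before and 50 after the start site. At 5 genes, Clec4a1, Clec4a3, Clec4e, Clec7a and Clec12a, all 6 lists held a peak over this window, as they did at 38.8% of 17491 protein-coding genes. The window of Clec4f had a peak in KC-H alone, a pattern of 1.26% of protein-coding genes. That of Clec1b had a peak in the 3 F4/80-high lists and no other, that of Clec4d had 1 in Ly6CHi-RM alone, and that of Clec4a2 had none. Shares over all genes were not computed for these patterns. A single list had a peak at 40.9% (KN-RM) to 48.2% (Blood-Ly6CHi-NASH) of the windows, so a window without a peak is common. The 250 bases before the start site are shown for Clec4f, Clec1b and Clec4d, whose windows had a peak in some lists only. They are also shown for Clec12a, whose window was open in all 6 lists. They read in the direction of the gene, and capitals mark matches to the motifs searched.
Clec4f, chr6:83656117-83656366, minus strand: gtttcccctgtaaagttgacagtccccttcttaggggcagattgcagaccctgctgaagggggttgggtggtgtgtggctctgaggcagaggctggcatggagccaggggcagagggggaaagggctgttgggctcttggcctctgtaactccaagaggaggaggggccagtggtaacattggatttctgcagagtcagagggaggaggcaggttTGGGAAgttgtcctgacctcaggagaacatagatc
Clec1b, chr6:129397047-129397296, plus strand: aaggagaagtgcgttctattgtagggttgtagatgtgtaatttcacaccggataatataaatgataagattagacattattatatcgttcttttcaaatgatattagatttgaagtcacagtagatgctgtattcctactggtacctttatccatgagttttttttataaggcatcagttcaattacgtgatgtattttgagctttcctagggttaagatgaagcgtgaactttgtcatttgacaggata
Clec4d, chr6:123261857-123262106, plus strand: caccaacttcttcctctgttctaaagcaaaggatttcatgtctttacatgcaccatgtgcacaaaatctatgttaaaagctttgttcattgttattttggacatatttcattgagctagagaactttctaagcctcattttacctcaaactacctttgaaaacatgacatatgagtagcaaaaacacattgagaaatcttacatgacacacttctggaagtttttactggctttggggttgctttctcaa
Clec12a, chr6:129349994-129350243, plus strand: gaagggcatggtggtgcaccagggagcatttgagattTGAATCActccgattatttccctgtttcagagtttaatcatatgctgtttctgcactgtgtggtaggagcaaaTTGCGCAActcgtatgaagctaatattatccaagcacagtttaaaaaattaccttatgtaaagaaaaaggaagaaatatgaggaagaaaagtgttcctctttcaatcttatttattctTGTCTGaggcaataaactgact
The motifs, searched on both strands, were GAGGAAGT (PU.1), TGANTCA (AP-1), TTGCGCAA (C/EBP), TGGGAA (RBPJ), CAGACA (SMAD), TGCTGAC (MAF) and a pair of GGTCA sequences with 4 bases between them (LXR). Clec4f held TGGGAA, which starts 35 bases before the start site and occurs in 20.8% of all such promoters. Clec12a held TTGCGCAA 140 bases before its start site, found in 0.194% of promoters, and TGAATCA and TGTCTG, which match the AP-1 and, on the other strand, the SMAD sequence and occur in 6.22% and 15.2%. The other 7 promoters held none of the 7 sequences. A match describes letters and is not a binding site.

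The lists differed in length and in how often each held a region of the 5 remaining lists. KN-RM had 34293 peaks, KC-N 50550, KC-H 63501, Ly6CLo-RM 54621, Ly6CHi-RM 61492 and Blood-Ly6CHi-NASH 69616. When a region was in the 5 remaining lists, KN-RM also had it in 81.8% of cases, and each other list in 95.7% to 99.3%. Regions missing from KN-RM alone were thus more common than those missing from another list alone. Whether the list is less complete or its cells less open was not tested, and a region missing from KN-RM was not shown to be closed. The 8 Kupffer cell markers besides Clec4f had 30 peaks in KN-RM, 46 in KC-N, 97 in KC-H and 21 to 31 in the other 3 lists. Timd4, the gene of Tim4, had 0, 1 and 17 in KN-RM, KC-N and KC-H. The markers were not uniform. Cd163 had 2, 3 and 7 there and 4, 4 and 8 in Ly6CLo-RM, Ly6CHi-RM and Blood-Ly6CHi-NASH. Vsig4 had 1, 2 and 5 and then 1, 4 and 6, so both had their most peaks in blood. Each other marker of this set had its most peaks in KC-H. The 4 markers of all macrophages had 26, 29 and 56 peaks in KN-RM, KC-N and KC-H and 16 to 23 in the other 3 lists. The 6 monocyte markers had 16 to 25 peaks in the F4/80-high lists and 24 to 39 in the CD11b-high and blood lists, and Chil3 had peaks in Ly6CHi-RM and Blood-Ly6CHi-NASH alone, 2 in each. Of the other cell types, the 5 liver endothelial markers had 11 peaks in KN-RM, 22 in KC-N, 34 in KC-H and 11 to 15 in the other 3 lists. Within the F4/80-high lists this is the order of the Clec4f peaks, and it is also the order of the lists' lengths. Among these markers, Stab2 had 7, 13 and 19 peaks in KN-RM, KC-N and KC-H, Cdh5 had 2, 4 and 10 and Clec4g had 0, 2 and 2. Kdr had 2, 3 and 2 there, and more in Ly6CLo-RM, Ly6CHi-RM and Blood-Ly6CHi-NASH, with 7, 5 and 7. Lyve1 had 0 peaks in KN-RM, KC-N and Ly6CLo-RM and 1 in each other list. The part of these markers in the results was not tested. Platelet markers (4 genes) had 3 to 6 peaks per list, neutrophil markers (5 genes, Ly6g at 0 in every list) 4 to 10 and hepatocyte markers (4 genes, Serpina1a at 0) 1 to 13, the last with 11 of the 13 blood peaks at Alb. Dendritic cell markers (4 genes, Cd209a at 0 in every list) had 9, 11 and 14 peaks in KN-RM, KC-N and KC-H and 27, 23 and 27 in Ly6CLo-RM, Ly6CHi-RM and Blood-Ly6CHi-NASH; Flt3 had 1 in each of the F4/80-high lists and 11, 11 and 12 in the others. Their part in the differences between these sets of lists was not tested. In sorted cells taken in bulk, fewer cells with an open region and a less open region in each cell cannot be told apart.

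**Figure D1:**
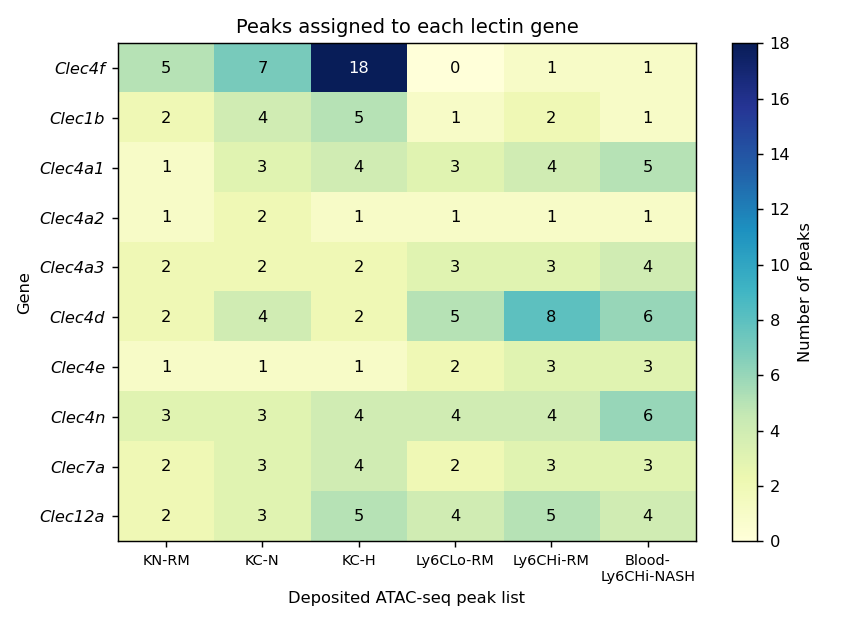
Number of peaks assigned to each of the 10 lectin genes (rows) in each deposited list (columns); each cell prints its count. Clec4f ranges from 0 peaks in Ly6CLo-RM to 18 in KC-H, and Clec4d from 2 in KN-RM and KC-H to 8 in Ly6CHi-RM.

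Clec4f (chr6:83644542-83656116, minus strand) had 18 regions, more than any other of the 10 genes, and 17 of them were found in F4/80-high lists only. It had 5 peaks in KN-RM, 7 in KC-N and 18 in KC-H, against 0 in Ly6CLo-RM and 1 each in Ly6CHi-RM and Blood-Ly6CHi-NASH. Of its regions 13 lay downstream of the gene, 4 in it and 1 upstream.

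The regions of Clec4f fell into those that KC-N held as well as KC-H and those of KC-H alone. All 9 regions in the gene or within 3701 bp of its ends were in KC-H and in no other list. The 7 regions that KC-N also held lay 6663 to 31091 bp downstream of the gene, and 5 of these were in all 3 F4/80-high lists and no other. That pattern was shared by 1.89% of the 100354 regions. The highest scored of the 5, chr6:83631892-83632135, is centred 24102 bp downstream of the start site. Each peak carries a whole-number score set by the authors' processing, of unstated scale, which ranks peaks within a list only. This region scored 54 in KN-RM, 69 in KC-N and 134 in KC-H, which placed it in the top 20.6%, 18.2% and 8.99% of those lists. Another 3 of the 5, nearer to the gene and centred 21914, 19510 and 18260 bp from the start site, scored 24 to 31 in KN-RM, 29 to 41 in KC-N and 72 to 90 in KC-H. The fifth, 42670 bp from the start site, scored 22, 43 and 39 in KN-RM, KC-N and KC-H. The 2 remaining regions of KC-N lay at 18692 bp, in KC-N and KC-H alone, and at 39426 bp. The region at 39426 bp, chr6:83616577-83616804, was the single Clec4f region outside the F4/80-high cells: it scored 25 in KC-N, 35 in KC-H, 24 in Ly6CHi-RM and 27 in Blood-Ly6CHi-NASH, and it was among the weaker peaks of Ly6CHi-RM (top 90.5%) and Blood-Ly6CHi-NASH (top 81.0%).

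The start-site region of Clec4f, chr6:83655999-83656199, scored 75 in KC-H (top 27.9%). It overlaps the sequence printed above and is centred 17 bp after the start site. The nearest peak centres of KN-RM and KC-N were 18255 and 18266 bp away. Of all KC-H peaks with a score of 75 or more, 1.55% had no overlapping KC-N peak, and of the 4 such peaks of Clec4f this was the 1 without. Of the 8360 promoter windows with a KC-H peak, 9.0% had none in KC-N. The other 10 regions of KC-H alone had scores of 25 to 47, below the list's median of 48. In that range 10 of 13 Clec4f peaks had no overlapping KC-N peak, against 55.1% of all KC-H peaks with such scores. Both score ranges were set after the values were seen, from the scores of the Clec4f regions of KC-H alone. Those 10 peaks and the start-site peak thus fall inside their ranges by construction, and neither share tests an excess at Clec4f. KC-H alone held 16 of the 64 regions of the 10 genes (25.0%, 95% Wilson interval 16.0% to 36.8%), against 9.84% of all regions, and without Clec4f 5 of 46 (10.9%, 4.73% to 23.0%). Clec4f had 11 of the 16, and the interval counts its neighbouring regions as independent, so it is no test.

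**Figure D2:**
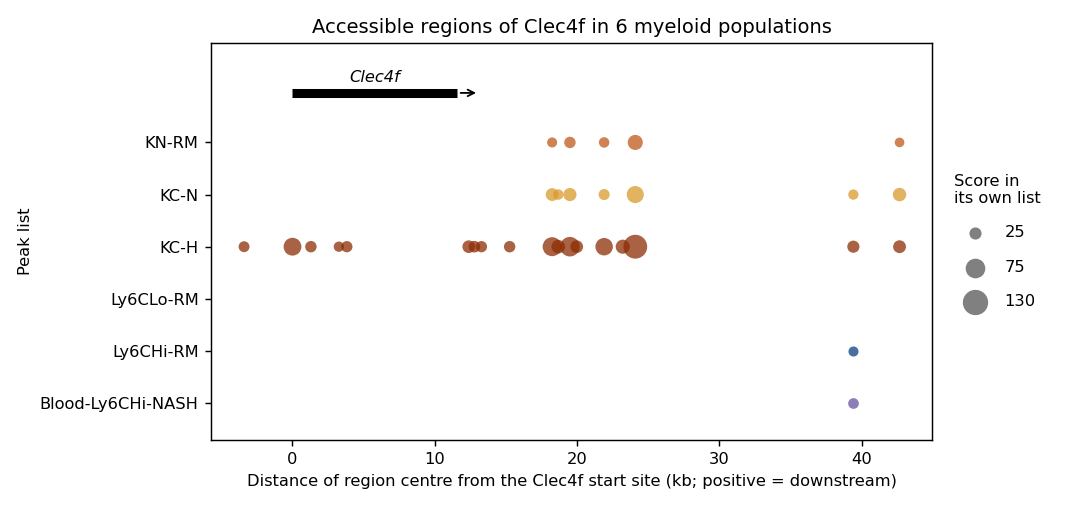
Regions of Clec4f in the 6 lists (rows) by the distance of their centre from the start site (kb, positive downstream); the bar is the gene, and the dot area grows with the score, which compares peaks within a row only. The KC-H row runs from 3386 bp before the start site to 42670 bp after it, and the first KN-RM and KC-N regions are 18260 bp after it.

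Clec1b (chr6:129397297-129405413), which encodes CLEC-2, a Syk-coupled receptor for podoplanin known from platelets and also found on Kupffer cells, had 5 regions, all in the gene. It had 2 peaks in KN-RM, 4 in KC-N and 5 in KC-H, against 1 in Ly6CLo-RM, 2 in Ly6CHi-RM and 1 in Blood-Ly6CHi-NASH. The region chr6:129399965-129400219, centred 2795 bp after the start site, scored 45 in KN-RM, 79 in KC-N, 155 in KC-H and 24 in Ly6CHi-RM, and was not listed in Ly6CLo-RM or Blood-Ly6CHi-NASH. Its rank in KC-H, the top 5.94%, was the best of all peaks of the 10 genes in any list. The start-site region scored 25 in KN-RM, 34 in KC-N and 56 in KC-H; KC-N had a pair of peaks there, of which the better is given. The KN-RM peak is centred just before the start, inside Clec12b, a longer gene that spans Clec1b, and by the rule counts for Clec12b. The region centred 5320 bp after the start site was in all 6 lists, with scores of 37 in KN-RM, 59 in KC-N, 75 in KC-H, 22 in Ly6CLo-RM, 49 in Ly6CHi-RM and 58 in Blood-Ly6CHi-NASH. Clec1b thus had 3 regions of F4/80-high lists only, a pattern of 18.3% of all regions. Of these, the start-site region was in all 3 F4/80-high lists. The other 2, centred 1029 and 3221 bp after the start site, were in KC-H alone. They scored 28 and 25 there, among its weaker peaks (top 86.7% and 94.9%). KN-RM and KC-N, which had no peak at the Clec4f start site, each had 1 or more at that of Clec1b.

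The DCIR group comprises Clec4a2, which encodes the inhibitory receptor DCIR, and its relatives Clec4a1 and Clec4a3. Each had at least 1 region in all 6 lists. Clec4a3 had its best peak at the start site, chr6:122952470-122952733, with scores of 41 in KN-RM, 65 in KC-N, 102 in KC-H, 79 in Ly6CLo-RM, 116 in Ly6CHi-RM and 134 in Blood-Ly6CHi-NASH. Clec4a3 had a region in all 6 lists 5537 bp upstream of the gene as well, and 2 weaker regions of the blood list alone and 1 of Ly6CLo-RM and Ly6CHi-RM. Clec4a2 had a region in all 6 lists 639 bp after its start site, with scores of 29 in KN-RM, 42 in KC-N, 57 in KC-H, 55 in Ly6CLo-RM, 82 in Ly6CHi-RM and 91 in Blood-Ly6CHi-NASH, and its only other region, scored 22, was in KC-N alone. Clec4a1 had 1 peak in KN-RM, 3 in KC-N, 4 in KC-H, 3 in Ly6CLo-RM, 4 in Ly6CHi-RM and 5 in Blood-Ly6CHi-NASH. Its start-site region was in all 6 lists, and 2 regions downstream, centred 13197 and 17948 bp from the start site, were in every list but KN-RM.

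Clec4n, Clec4d and Clec4e encode Dectin-2, MCL and Mincle, activating receptors that signal through the Fc receptor gamma chain; Mincle and MCL recognise mycobacterial glycolipids and Dectin-2 fungal mannans. Clec4d was the gene with the most peaks in Ly6CHi-RM. It had 2 peaks in KN-RM, 4 in KC-N, 2 in KC-H, 5 in Ly6CLo-RM, 8 in Ly6CHi-RM and 6 in Blood-Ly6CHi-NASH. Both regions inside the gene centred 3946 and 4984 bp after the start site were in all 6 lists. The other 6 regions, from 2952 bp before the gene to 1256 bp after the start site, were in none of KN-RM and KC-H, and 2 of them were in KC-N with scores of 21 and 22. The best of these 6, chr6:123260311-123260588, scored 22 in KC-N, 45 in Ly6CLo-RM, 98 in Ly6CHi-RM and 67 in Blood-Ly6CHi-NASH. The start-site peak of Clec4d scored 25 in Ly6CHi-RM, which is below that list's median of 46.

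At Clec4e the start-site region, chr6:123289820-123290048, was in every list and scored 26 in KN-RM, 29 in KC-N, 29 in KC-H, 43 in Ly6CLo-RM, 83 in Ly6CHi-RM and 84 in Blood-Ly6CHi-NASH. It ranked in the top 77.0%, 70.9% and 85.9% of KN-RM, KC-N and KC-H, among their weaker peaks, and in the top 45.3%, 23.2% and 21.9% of Ly6CLo-RM, Ly6CHi-RM and Blood-Ly6CHi-NASH. The 3 other regions of Clec4e were in CD11b-high or blood lists only. Clec4n had 3 regions in all 6 lists, with scores of 30 to 42 in KN-RM, 37 to 57 in KC-N, 46 to 73 in KC-H, 50 to 63 in Ly6CLo-RM, 77 to 102 in Ly6CHi-RM and 70 to 94 in Blood-Ly6CHi-NASH. Another region of Clec4n, over the lower-coordinate end of the gene, was in KC-H and the 3 CD11b-high and blood lists, and 2 were in the blood list alone. Over the 10 genes, 6 of 64 regions were in the blood list alone (9.38%), against 9.67% of all regions.

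Clec7a encodes Dectin-1, the Syk-coupled receptor for beta-glucans, and Clec12a encodes MICL, an inhibitory receptor of myeloid cells. Both had a start-site region in all 6 lists. That of Clec7a, chr6:129472676-129472988, scored 30 in KN-RM, 42 in KC-N, 53 in KC-H, 54 in Ly6CLo-RM, 75 in Ly6CHi-RM and 67 in Blood-Ly6CHi-NASH. That of Clec12a, chr6:129349926-129350286, scored 32 in KN-RM, 46 in KC-N, 87 in KC-H, 65 in Ly6CLo-RM, 51 in Ly6CHi-RM and 40 in Blood-Ly6CHi-NASH. Clec12a had regions with different memberships on either side. The region chr6:129351184-129351428, centred 1062 bp after the start site, scored 49 in KN-RM, 77 in KC-N, 87 in KC-H, 44 in Ly6CLo-RM and 50 in Ly6CHi-RM and was missing from the blood list alone. Another region of Clec12a, centred 15830 bp after the start site, was found in the 3 CD11b-high and blood lists only, with scores of 31 in Ly6CLo-RM, 45 in Ly6CHi-RM and 50 in Blood-Ly6CHi-NASH. It and a Clec4d region were the 2 of 64 regions in these 3 lists and no other (3.12%), against 5.72% of all regions. Clec7a and Clec12a each had 1 region in KC-H alone, inside the gene and scored 35 and 30.

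**Figure D3:**
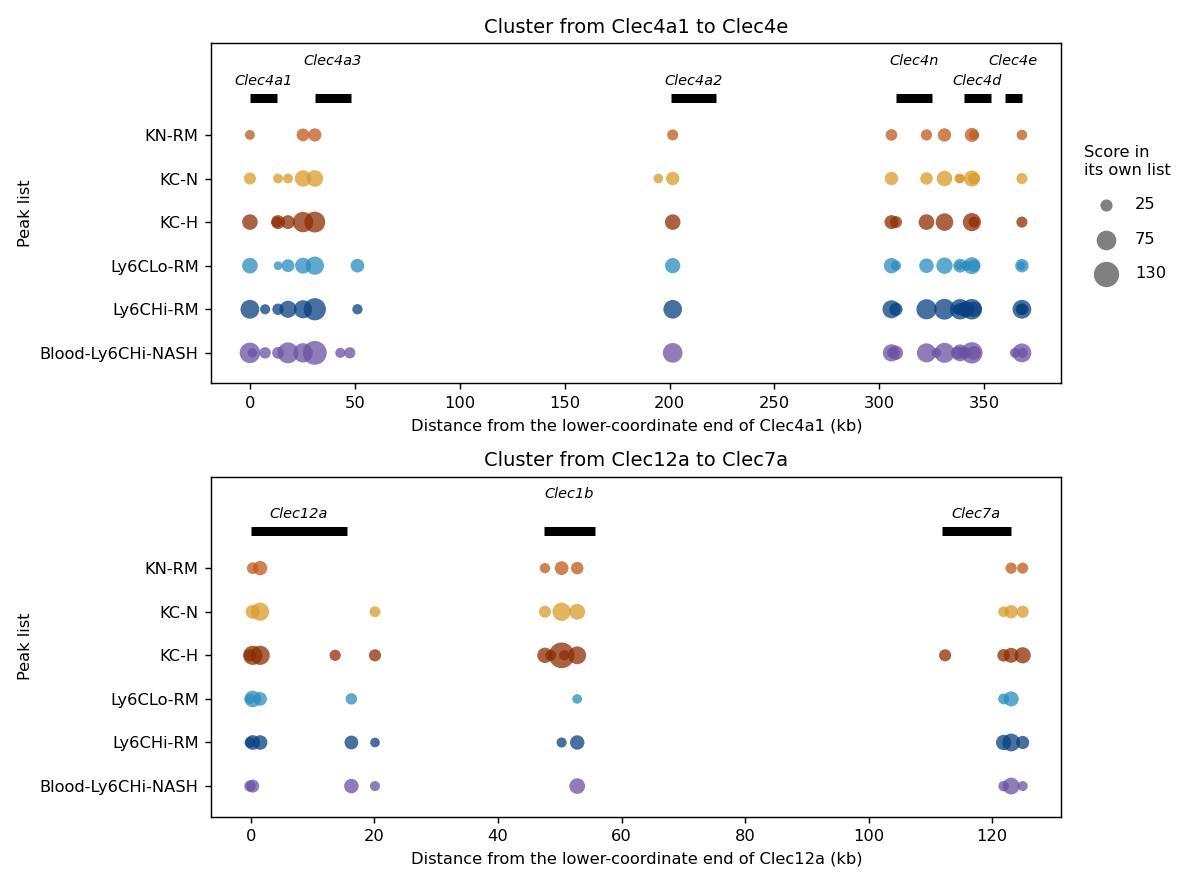
Regions of the 9 other lectin genes in the 6 lists (rows) by distance along the chromosome (kb) from the lower-coordinate end of Clec4a1 (top) and Clec12a (bottom); bars are the genes studied, other genes of the clusters are not drawn, and the dot area grows with the score within a list. Clec4a3 has 2 regions and Clec4n 3 regions that appear in every row, while the Clec1b regions lie mostly in the upper 3 rows.

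The diet was examined in Tim4-positive Kupffer cells by comparing KC-N with KC-H. Of the 32 KC-N peaks of the 10 genes, 3 had no overlapping KC-H peak (9.38%, 95% Wilson interval 3.24% to 24.2%), against 13.5% of all KC-N peaks. Of the 46 KC-H peaks, 18 had no overlapping KC-N peak (39.1%, 26.4% to 53.5%), against 31.2% of all KC-H peaks. Intervals cover counting error only. They treat peaks as independent, which neighbouring peaks of a gene in the same list need not be, so no test is read from them. Clec4f accounted for 11 of the 18. Without Clec4f the count was 7 of 28 (25.0%, 12.7% to 43.4%), so the other genes lay near the share of the whole list. The 3 peaks of KC-N alone in this comparison were 2 upstream of Clec4d and 1 upstream of Clec4a2. With a centre within 1000 bp also counted as shared, 3 of KC-N and 12 of KC-H were left, against 9.2% and 20.5% of all peaks. When each list was cut to its 34293 best-scored peaks, Clec4f had 4 in KC-N against 6 in KC-H. Of these, 1 of KC-N and 3 of KC-H had no counterpart, against 18.6% and 18.7% of all peaks, and the start-site peak was among the 3. The Clec4f peak number thus differed by 11 between the whole lists and by 2 between lists of equal length.

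Tim4-negative Kupffer cells were set against Tim4-positive ones, both of NASH-diet mice, and neither share of missing peaks lay above that of the whole list. Of the 21 KN-RM peaks 0 were without a KC-N peak (0 to 15.5%), against 5.74% of all KN-RM peaks. Of the 32 KC-N peaks, 10 had no KN-RM peak (31.2%, 18.0% to 48.6%), against 36.0% of all KC-N peaks. Clec4f, Clec4a1 and Clec4d had 2 of the 10 each, and Clec1b, Clec4a2, Clec7a and Clec12a had 1 each. With lists of equal length the counts were 2 of 21 in KN-RM and 1 of 21 in KC-N, so the order turned, against 16.4% of all peaks of either list. With a centre within 1000 bp counted as shared, 0 of KN-RM and 8 of KC-N were left, against 2.66% and 26.8% of all peaks.

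Among recruited liver macrophages, 0 of the 25 Ly6CLo-RM peaks were without a Ly6CHi-RM peak (0 to 13.3%), against 14.0% of all Ly6CLo-RM peaks. Of the 34 Ly6CHi-RM peaks, 9 had no Ly6CLo-RM peak (26.5%, 14.6% to 43.1%), against 23.6% of all Ly6CHi-RM peaks. Clec4d had 3 of the 9, and Clec4f, Clec1b, Clec4a1, Clec4e, Clec7a and Clec12a had 1 each. With lists of equal length 1 and 4 were left, against 17.8% of all peaks of either list; the Ly6CLo-RM peak was the 1 of Clec4a3, centred 20288 bp after its start site, which scored 44 in Ly6CLo-RM and 25 in Ly6CHi-RM. With a centre within 1000 bp counted as shared, 0 of Ly6CLo-RM and 7 of Ly6CHi-RM were left, against 9.34% and 18.2% of all peaks.

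Ly6C-high cells of the liver were set against those of the blood. Of the 34 Ly6CHi-RM peaks, 6 had no Blood-Ly6CHi-NASH peak (17.6%, 8.35% to 33.5%), against 11.1% of all Ly6CHi-RM peaks. They were 2 of Clec4d and 1 each of Clec1b, Clec4a3, Clec4e and Clec12a. Of the 34 Blood-Ly6CHi-NASH peaks, 6 had no Ly6CHi-RM peak (17.6%, 8.35% to 33.5%), against 21.4% of all blood peaks: 2 each of Clec4a3 and Clec4n and 1 each of Clec4a1 and Clec4e. With lists of equal length 5 of Ly6CHi-RM and 1 of blood were left, against 15.6% of all peaks of either list. The 5 were 2 each of Clec4d and Clec12a and 1 of Clec7a. With a centre within 1000 bp counted as shared, 3 of Ly6CHi-RM and 5 of blood were left, against 6.76% and 15.9% of all peaks. Only the isolation of liver cells is described, so an effect of the tissue and one of the isolation cannot be told apart.

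Peaks in the better-scored 50% of a list were seldom without a counterpart anywhere in the other list. Between KC-N and KC-H these were 0 of 15 KC-N peaks (3.73% of all such peaks) and 1 of 19 KC-H peaks (5.69%), the 1 being the Clec4f start site. Between KN-RM and KC-N they were 0 of 8 KN-RM peaks (1.03%) and 0 of 15 KC-N peaks (6.32%). Between Ly6CLo-RM and Ly6CHi-RM they were 0 of 14 Ly6CLo-RM peaks (2.96%) and 0 of 18 Ly6CHi-RM peaks (3.89%). Between Ly6CHi-RM and blood they were 1 of 18 Ly6CHi-RM peaks (1.67%), the Clec12a region 1062 bp after the start site, and 0 of 15 blood peaks (2.18%).

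**Figure D4:**
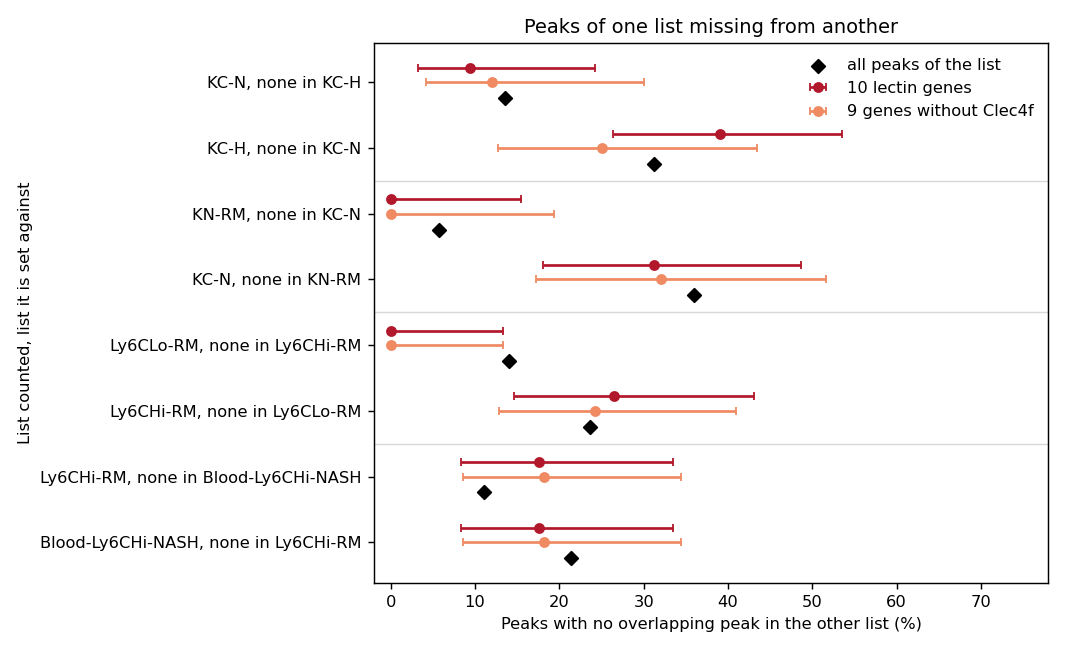
Percent of the peaks of one list with no overlapping peak in the list it is set against, for the 10 lectin genes and for 9 without Clec4f (dots with 95% Wilson intervals) and for all peaks of the list (diamonds, no interval). KC-H peaks missing from KC-N are the row where leaving out Clec4f moves the share from above to below that of the whole list (39.1% and 25.0%, against 31.2%).

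Across the F4/80-high lists and the CD11b-high and blood lists, 24 of the 64 regions were in F4/80-high lists only (37.5%, 26.7% to 49.7%), against 18.3% of all 100354 regions. In CD11b-high and blood lists only were 15 (23.4%, 14.7% to 35.1%), against 29.4%. Without Clec4f, 7 of 46 (15.2%, 7.57% to 28.2%) and 15 of 46 (32.6%, 20.9% to 47.0%) had these patterns, close to the shares of all regions. Of those 7, Clec1b had 3 and Clec4a1, Clec4a2, Clec7a and Clec12a had 1 each. Of the 15, Clec4d had 4, Clec4a3 and Clec4e 3 each, Clec4a1 and Clec4n 2 each and Clec12a 1. All 6 lists held 13 of the 64 regions (20.3%, 12.3% to 31.7%), against 25.4%, and none of the 13 was at Clec4f. Of the 24 regions of F4/80-high lists only, 16 were in KC-H alone, as were 9.84% of all regions. KC-H is the only list of control-diet mice. Cell type and diet therefore cannot be told apart when regions of KC-H alone are set against the CD11b-high and blood lists.

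The genes whose peak counts over the 6 lists were most like those of Clec4f, by Bray-Curtis distance among 21882 protein-coding genes, were Stab2 (0.135), Kitl (0.138) and Samd4 (0.143). Stab2, a scavenger receptor gene known from liver sinusoidal endothelial cells and on the list of endothelial markers, had 7 peaks in KN-RM, 13 in KC-N, 19 in KC-H and 1 in each other list. Kitl, which encodes stem cell factor, had 3, 6 and 15 in KN-RM, KC-N and KC-H. Samd4 had 4, 10 and 17 there, and 0, 3 and 4 in Ly6CLo-RM, Ly6CHi-RM and Blood-Ly6CHi-NASH.

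Of 20 other C-type lectin genes, 12 had a peak in KN-RM, 14 in KC-N, 16 in KC-H, 13 in Ly6CLo-RM, and 17 each in Ly6CHi-RM and Blood-Ly6CHi-NASH; Clec14a and Cd209a had none in any list. The mannose receptor gene Mrc1 had the largest difference, with 9 peaks in KC-N against 16 in KC-H. Clec2d had 2 peaks in KN-RM and 7 in KC-N, Clec5a, which encodes an activating receptor of myeloid cells, had 3 and 7, and Clec4b1 had 0 in Ly6CLo-RM and 3 in Ly6CHi-RM. More peaks in KC-N than in KC-H were found at 3 of the 20 genes and fewer at 7, where 12.0% and 46.0% of 15822 genes with a peak had such differences. KN-RM had more than KC-N at 0 and fewer at 10 (4.09% and 47.0% of all). Ly6CLo-RM had more than Ly6CHi-RM at 2 and fewer at 10 (15.9% and 36.6%), and Ly6CHi-RM had more than blood at 3 and fewer at 6 (14.1% and 38.7%).

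The 19 genes of lectin receptor signalling had a peak in every list, apart from Btk, which had 0 in KN-RM. They had 125 peaks in KN-RM, 164 in KC-N, 202 in KC-H, 180 in Ly6CLo-RM, 206 in Ly6CHi-RM and 214 in Blood-Ly6CHi-NASH, the order of the lists' lengths except that Ly6CHi-RM stood above KC-H. Syk had 20 peaks in KN-RM and 27 in KC-N, and Malt1, a scaffold downstream of Syk and Card9, had 3 and 10. Lyn, a Src family kinase, had 22 in KC-N and 32 in KC-H. Plcg2, the phospholipase that Syk activates, had 14 in Ly6CHi-RM and 23 in Blood-Ly6CHi-NASH. Of the 19, 3 had more peaks in KC-N than in KC-H and 13 had fewer, 1 had more in KN-RM than in KC-N and 12 fewer, 2 had more in Ly6CLo-RM than in Ly6CHi-RM and 10 fewer, and 6 had more in Ly6CHi-RM than in blood and 8 fewer. The shares over all genes with a peak are those given above. For the same comparisons they are 12.0% and 46.0%, 4.09% and 47.0%, 15.9% and 36.6%, and 14.1% and 38.7%. These shares are not matched for the number of peaks per gene, which bears on how often counts are equal, so no excess is read from them.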

How the data were processed

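ATAC-seq was done on 12 libraries in 6 groups of 2, grouped by the sample titles. Bowtie2, HOMER and DESeq2 and the builds mm10 and GRCm38 appear in the submitters' processing notes, with neither version nor role. Read filters, any shift for the transposase and depth per library are not stated there. For each group the authors deposited 1 headerless list of peaks, nearly all 200 bp wide, with IDR (irreproducible discovery rate) in its name per the labels. The signal in each row is a tag count scaled by the authors; the score is the authors' whole number per peak. Signal was used to order peaks of equal score.

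Gene positions (21883 protein-coding genes, no exons) are those of RefSeq on GRCm38.p6, the assembly of mm10. A centre inside several genes went to the studied gene. Peaks overlapping by 1 bp were joined or called shared. Coordinates are printed as the lists give them. All 10 genes are named; for fixed gene lists, the 4 with the largest difference in peak count between lists compared, and, chosen after their values were seen, Btk, Clec14a and Cd209a; for genes with 10 or more regions, the 3 with the smallest Bray-Curtis distance. Genes, lists and rules were chosen with earlier results of these data known. Assignment and overlap were recovered for all of 818 simulated peaks, each planted inside a gene that no other gene overlaps. The assignment of peaks outside genes, or inside overlapping genes, was not tested in this way. Computation used matplotlib 3.10.9, scipy 1.17.1, pandas 2.3.3, numpy 2.4.6 and Python 3.11.15.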

Additional observations from a re-analysis of the deposited data

How the results depend on the processing

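Counts of peaks of the 10 genes without a counterpart depended most on list length. With all lists at the length of the shortest, 34293 peaks, the counts were 4 of 22 in place of 18 for KC-H against KC-N (18.2%, against 18.7% of all peaks), 2 in place of 0 for KN-RM against KC-N and 1 in place of 10 for KC-N against KN-RM (9.52% and 4.76%, against 16.4% of all peaks of either), which turned the order of that pair. They were 1 for Ly6CLo-RM and 4 for Ly6CHi-RM against each other (6.25% and 21.1%, against 17.8% of all peaks of either; 0 and 9 with whole lists) and 1 for Blood-Ly6CHi-NASH against Ly6CHi-RM (6.67%, against 15.6%; 6 with whole lists). Regions of F4/80-high lists only then numbered 11 of 32 in place of 24 (34.4%, against 21.4% of all regions) and those of CD11b-high and blood lists only 7 in place of 15 (21.9%, against 22.3%), with 114 peaks in place of 192. With the better-scored 50% of every list, they were 6 of 19 for KC-H against KC-N (31.6%, against 29.4% of all peaks), 1 of 14 and 5 of 18 for Ly6CLo-RM and Ly6CHi-RM against each other (7.14% and 27.8%, against 13.3% and 23.0%) and 2 of 15 for Blood-Ly6CHi-NASH against Ly6CHi-RM (13.3%, against 21.6%). There were then 9 of 30 regions of each kind (30.0%, against 17.0% of all regions for F4/80-high lists only and 29.8% for CD11b-high and blood lists only), with 89 peaks. An overlap of 50% of the shorter peak gave 5 in place of 3 for KC-N against KC-H and 1 in place of 0 for KN-RM against KC-N. The share of all peaks at that overlap was not computed, so these changes are not specific to the 10 genes as far as shown. Counting a centre within 1000 bp as shared gave 3 in place of 6 for Ly6CHi-RM against Blood-Ly6CHi-NASH. The remaining counts of these settings, and all with a gene window of 20 kb, stayed within 1.5 times. Leaving out the KN-RM list, a setting chosen after seeing the data, left both region counts unchanged. Because 0 of the 21 KN-RM peaks were without a KC-N peak, neither count could change, so this setting tests nothing. Leaving out KC-H, which alone held 16 of the 64 regions, was not run.

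Of the 60 counts per gene and list, 30 moved by over 1.5 times with equal lengths, 42 with the better-scored 50% and 2 with the 20 kb window. No paired analysis was possible because each list joins both libraries of a group, and for the same reason no library was left out. The cause of the changes was not tested. Depth per library is unknown, so a region missing from a list was not shown to be closed.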
